A study of Homo sapiens with 8 samples.

Results

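The genes of the lysosome, of autophagy and of the TFE transcription factors were followed in DND41 cells, an established human cell line derived from a T-cell acute lymphoblastic leukemia, with a short hairpin RNA (shRNA) against SIRT1. SIRT1 is a nuclear and cytosolic NAD-dependent protein deacetylase. The 33 genes were taken by symbol from the 18133 rows of the deposited table, and all 33 symbols were found. They are the TFE factors TFEB, TFE3 and MITF, the lysosomal membrane proteins LAMP1, LAMP2 and MCOLN1, the lysosomal proteases CTSA, CTSB, CTSC, CTSD, CTSL and CTSZ, the glycosidases GAA, GLA, HEXA, GUSB and NEU1 with the hydrolase activator PSAP, and the proton pump genes ATP6V1H, ATP6V0D1 and ATP6AP1. The autophagy genes are the cargo receptor SQSTM1, the ATG8 proteins MAP1LC3B, GABARAPL1 and GABARAPL2, the initiation and nucleation factors ULK1, BECN1, UVRAG and WIPI1, and the conjugation factors ATG5, ATG7, ATG12 and ATG16L1.

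The 8 libraries were 3 with the SIRT1 construct sh1 (A, B and C), 3 with the SIRT1 construct sh3 (A, B and C) and 2 with the control shRNA (A and C). All 8, the controls included, came from DND41 cells kept for 72 h in doxycycline, which switches the hairpin on. The sequences that the hairpins target, and whether the cells were a clone, are not given in the labels. The labels speak of plating in triplicate and name no separate infections, so the p-values rest on the scatter between culture wells, which may be technical. The labels of sh3 C contradict each other, with a title and genotype of the SIRT1 arm but a description of the control hairpin. Across genes, sh3 C had a Spearman correlation of at least 0.9955 with the other sh3 libraries, at most 0.9932 with sh1 and at most 0.9925 with the controls, and it was kept in sh3.

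Lysosomes are acidic compartments in which hydrolases break down proteins, glycans and lipids delivered by endocytosis and by autophagy. In autophagy, the ULK1 kinase complex and the BECN1 lipid kinase complex start a membrane, conjugation factors attach ATG8 proteins to it, and receptors such as SQSTM1 bring cargo into it before it fuses with a lysosome. TFEB, TFE3 and MITF are related basic helix-loop-helix factors that bind E-box sequences near the start sites of many lysosomal and autophagy genes, and the kinase complex mTORC1 holds TFEB and TFE3 in the cytosol while nutrients are plentiful. ATG5, ATG7 and LC3 are among the proteins that SIRT1 is known to deacetylate, a change that messenger RNA levels do not measure.

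The values were normalized counts, which summed to between 33087820 and 34072666 per library, and values per library are given in the order A, B, C (A, C for the controls). SIRT1 (chromosome 10, 67884669 to 67918390, GRCh38) was at 1259, 1312 and 1328.5 normalized counts in the sh1 libraries, 1099, 1217 and 1179 in the sh3 libraries and 1745 and 1919.5 in the controls. All 6 knockdown libraries were below both controls, and the log2 change was -0.57 ± 0.063 (SE, adjusted p = 0.00030). The call of sh1 alone was lost without control C. The T lineage markers were all detected where matched (10 of 12 symbols), led by CD3E. Their summed level was 67325 to 75963 normalized counts in the knockdown libraries and 85652 to 89027 in the controls. Myeloid markers, which matter because lysosomal genes are abundant in macrophages, summed to 368 to 500.4 in the knockdown libraries and 470.2 to 512 in the controls. AIF1 gave most of that sum, and LYZ, CD14, CSF1R, ITGAM, MPO, CD163, S100A8 and MRC1 each averaged under 10. Erythroid markers summed to at most 41.9 and fibroblast or epithelial markers to at most 103 in any library. Of the B cell markers, which summed to 20385 to 28556 in the knockdown libraries and 27202 to 28882 in the controls, CD79A gave most, and PAX5 and CD22 averaged under 10.

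Genes of the lysosome were called lower more often than higher in the knockdown, and a single ATG8 gene rose. Of the 31 genes that averaged at least 10 normalized counts and were tested, 7 fell, namely PSAP, CTSD, LAMP1, CTSC, ATP6V0D1, LAMP2 and ULK1, and GABARAPL1 rose, while 23 were not called. Calls are at an adjusted p under 0.05 in limma. The share called lower was 22.6%, beside a background of 6.19% of all 13885 genes tested, and the share called higher was 3.23% beside a background of 6.55%. This background was not matched to the 31 genes for level. The SE of the log2 change differed with level, from 0.035 for the abundant PSAP to 0.36 for the low MITF. The median log2 change was -0.066 over the 31 genes and -0.0022 over all genes tested. Without control A 5 of the 8 genes were called, without control C 3 (PSAP, CTSD and LAMP1), and without sh3 C all 8. Without a trend in the variance prior LAMP2, ATP6V0D1, GABARAPL1 and ULK1 were not called, and NEU1 was called lower. With the constructs pooled as 1 group against the controls, PSAP and CTSD alone were called. In bulk RNA, fewer cells of a kind and less RNA per cell cannot be told apart. The T lineage marker sums given above moved the same way as the lysosomal genes, and their part in these changes was not tested.

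With sh1 alone 4 genes fell (PSAP, CTSD, LAMP1 and WIPI1) and 1 rose (GABARAPL1), or 12.9% and 3.23% of the 31, beside backgrounds of 3.43% lower and 2.88% higher. With sh3 alone 8 fell (PSAP, CTSD, CTSC, LAMP2, LAMP1, ATP6V0D1, ULK1 and MAP1LC3B) and 2 rose (GABARAPL1 and UVRAG), or 25.8% and 6.45%, beside backgrounds of 9.19% and 9.36%. PSAP, CTSD, LAMP1 and GABARAPL1 were called with each construct against the same 2 controls. The counts fell to 3 with sh1 when sh1 B, control A or control C was left out, and to 4 with sh3 when control A or control C was left out. Without sh3 C the sh3 comparison called 7. Without a trend in the variance prior the calls of GABARAPL1 with sh1 and of ATP6V0D1, ULK1, MAP1LC3B, GABARAPL1 and UVRAG with sh3 were lost, and NEU1 was called with sh3.

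**Figure D1:**
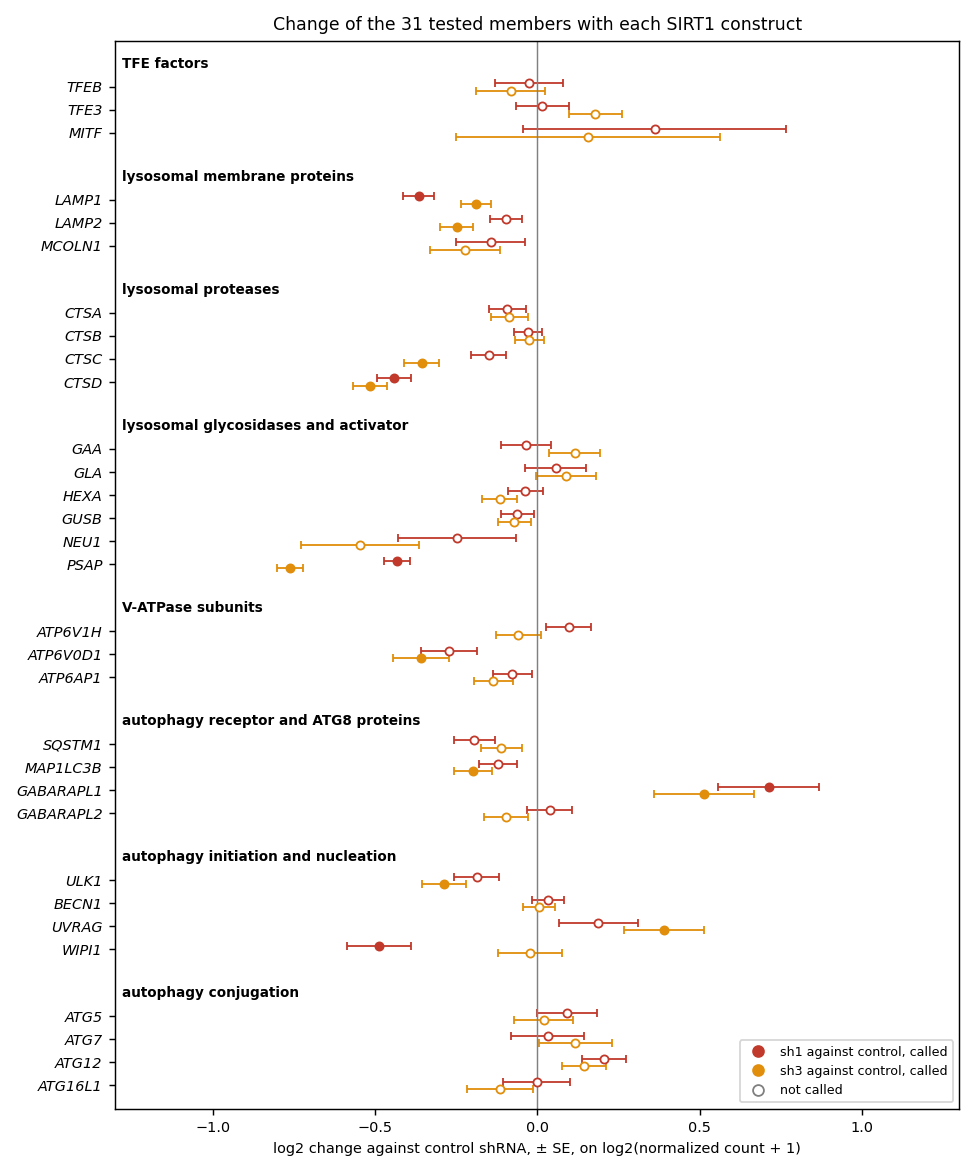
Log2 change (x axis, on log2 of normalized count + 1) of the 31 tested genes, grouped by role down the page, with sh1 against control (red) and sh3 against control (orange), bars ± SE from the fit, filled points called at an adjusted p under 0.05. PSAP, CTSD and LAMP1 lie left of 0 with both constructs, GABARAPL1 lies right of 0 with both, and WIPI1 is called with sh1 alone.

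None of the 3 TFE factors was called in limma in any comparison with control, and none reached an unadjusted p under 0.05 there. TFEB, the factor most studied as a regulator of lysosomal genes (chromosome 6, 41683978 to 41736259), was at 529, 509 and 523 normalized counts in sh1, 561, 483 and 461 in sh3 and 489.9 and 572 in control cells. The groups overlapped, and the change was -0.054 ± 0.095 (SE, adjusted p = 0.76), with a 95% interval of -0.26 to 0.15. TFE3 (chromosome X, 49028726 to 49043486), which binds the same sequences, was at 1139.5, 1023 and 1157 normalized counts with sh1, 1196, 1315 and 1203 with sh3 and 1156 and 1034 with the control shRNA. Its change was 0.096 ± 0.073 (SE, adjusted p = 0.43), with an interval of -0.064 to 0.26, and all 3 sh3 libraries lay above both controls. MITF, best known from melanocytes, was low, between 13.2 and 25.9 normalized counts in the knockdown libraries and at 11.8 and 24.7 in the controls. At that level the change of 0.26 ± 0.36 (SE, adjusted p = 0.69) had an interval of -0.54 to 1.05. Changes in either direction within that interval could not be told from none.

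Promoter sequences are shown because the E-box that TFE factors bind stands before some of the genes that fell and some that were not called. RefSeq promoters on GRCh38.p14, the 250 bases before and 50 after each start, were matched for 27 of the 33 genes, with 34 starts between them. ATP6V1H, CTSB, HEXA, LAMP2, PSAP and UVRAG had no entry. Below are the 250 bases before the start of LAMP1 (chr13:113296989-113297238, plus strand), CTSD (chr11:1763928-1764177, minus strand) and ATP6V0D1 (chr16:67481158-67481407, minus strand), which fell, and of GABARAPL1 (chr12:10212627-10212876, plus strand), which rose. Each runs 5′ to 3′ toward the gene, and capitals mark the E-box CACGTG with the letters that extend it to TCACGTGA or to GTCACGTG on either strand. Where both extensions are present, as in ATP6V0D1, the capitals mark TCACGTGA alone.
LAMP1: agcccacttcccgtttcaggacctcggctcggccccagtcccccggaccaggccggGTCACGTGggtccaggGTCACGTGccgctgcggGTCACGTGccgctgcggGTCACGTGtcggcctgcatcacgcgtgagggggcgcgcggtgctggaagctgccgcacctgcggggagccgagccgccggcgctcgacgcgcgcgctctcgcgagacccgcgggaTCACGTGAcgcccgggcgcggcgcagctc
CTSD: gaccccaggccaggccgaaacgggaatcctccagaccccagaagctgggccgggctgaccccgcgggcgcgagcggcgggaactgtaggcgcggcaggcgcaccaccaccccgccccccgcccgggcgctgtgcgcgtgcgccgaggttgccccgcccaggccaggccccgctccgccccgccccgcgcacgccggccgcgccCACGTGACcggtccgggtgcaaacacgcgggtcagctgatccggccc
ATP6V0D1: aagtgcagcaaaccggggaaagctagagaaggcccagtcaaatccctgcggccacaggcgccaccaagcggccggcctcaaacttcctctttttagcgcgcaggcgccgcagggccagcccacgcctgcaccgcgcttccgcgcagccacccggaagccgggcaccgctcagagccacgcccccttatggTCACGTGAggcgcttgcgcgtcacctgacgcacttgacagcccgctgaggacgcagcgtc
GABARAPL1: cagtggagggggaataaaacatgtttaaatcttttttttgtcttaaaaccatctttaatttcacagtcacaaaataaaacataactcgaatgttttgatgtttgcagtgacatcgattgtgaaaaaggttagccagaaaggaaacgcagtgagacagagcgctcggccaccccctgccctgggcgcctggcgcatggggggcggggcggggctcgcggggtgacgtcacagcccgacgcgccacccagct
The LAMP1 stretch holds 5 copies of CACGTG, 4 of them preceded by GT, and a further copy lies across the start itself. The CTSD and ATP6V0D1 stretches hold 1 copy each, and the GABARAPL1 stretch holds none. The promoters of CTSC and ULK1, which also fell and are not printed, hold none either.

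The same E-box stood before 4 genes that were not called. Windows of 30 bases around each copy are shown for GAA (chr17:80101493-80101522 and chr17:80101538-80101567), MCOLN1 (chr19:7522571-7522600 and chr19:7522598-7522627), CTSA (chr20:45891281-45891310 and chr20:45891298-45891327), all on the plus strand, and NEU1 (chr6:31862930-31862959, minus strand), with the capitals as before.
GAA, first copy: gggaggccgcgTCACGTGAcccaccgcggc
GAA, next copy: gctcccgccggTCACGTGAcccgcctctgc
MCOLN1, first copy: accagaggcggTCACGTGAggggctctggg
MCOLN1, next copy: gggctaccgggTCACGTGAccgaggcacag
CTSA, first copy: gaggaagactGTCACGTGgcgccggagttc
CTSA, next copy: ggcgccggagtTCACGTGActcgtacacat
NEU1: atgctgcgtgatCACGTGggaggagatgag
Around these copies TCACGTGA appears at both places in GAA and MCOLN1 and once in CTSA, while NEU1 has the 6-letter core with other letters beside it.

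Searched on both strands over the 300 bases, CACGTG was found in 7 of the 34 promoters (20.6%), each from a different gene, and in 9.27% of the 14644 promoters of genes tested here. TCACGTGA, which contains it, was found in 5 (14.7%) against 1.69%, and GTCACGTG, which contains it too, in 6 (17.6%) against 3.74%. CATGTG, another sequence the TFE factors bind, was found in 3 (8.82%), those of ATG12, BECN1 and CTSA, against 7.54%. Over all 35116 promoters of the table the shares were 7.26% for CACGTG, 0.980% for TCACGTGA, 2.40% for GTCACGTG and 11.1% for CATGTG. At least 6 copies of CACGTG were found in 1 of the 14644 promoters, that of LAMP1. Of the 25 tested genes of the 33 with a promoter, 7 held CACGTG, of which 3 fell and none rose (median log2 change -0.28), and 18 did not, of which 2 fell (CTSC and ULK1) and 1 rose (median -0.042). Over all genes tested with a promoter, 92 of 1259 with CACGTG fell (7.31%), as did 535 of 8775 without it (6.10%). Their median log2 changes were -0.014 with CACGTG and 0.0054 without it. In the same set 79 with CACGTG (6.275%) and 644 without it (7.34%) rose. For TCACGTGA, 14 of 229 with it fell (6.11%), as did 613 of 9805 without it (6.25%), and 8.30% and 7.18% rose. For GTCACGTG, with 514 genes holding it and 9520 not, 6.81% and 6.22% fell, and 6.23% and 7.26% rose. The genes and the sequences searched were both chosen for a known link to the TFE factors, so the shares among the 34 promoters are no test of that link. A match is a description of these letters and not a bound site.

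LAMP1 and LAMP2, the abundant glycoproteins that line the lysosomal membrane, fell, and the construct with the lower level differed between them. LAMP1 (chromosome 13, 113297241 to 113323672) was at 3825, 3812 and 3686 normalized counts in the sh1 libraries, 4176, 4365 and 4260.3 in the sh3 libraries and 4866 and 4861 in the controls. All 6 knockdown libraries were below both controls, with sh1 below sh3, and the knockdown change was -0.28 ± 0.042 (SE, adjusted p = 0.0022). It was -0.37 ± 0.047 (SE, adjusted p = 0.0015) with sh1 and -0.19 ± 0.047 (SE, adjusted p = 0.018) with sh3, and the sh3 call was lost without sh3 A, control A or control C.

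LAMP2, which also serves in chaperone-mediated autophagy (chromosome X, 120427827 to 120469365), was at 3518, 3748 and 3680.3 normalized counts in sh1, 3332, 3301 and 3207 in sh3 and 3906 and 3889 in control cells. All 6 knockdown libraries were below both controls here too, but sh3 was the lower construct. The knockdown change was -0.17 ± 0.044 (SE, adjusted p = 0.028), and the call was lost without control A, control C or sh3 B. With sh3 it was -0.25 ± 0.050 (SE, adjusted p = 0.0060), called in all 17 alternative settings, and with sh1 -0.096 ± 0.050 (SE, adjusted p = 0.29). MCOLN1, the lysosomal calcium channel, was at 642 ± 54.8 normalized counts with sh1, 609 ± 69.0 with sh3 and 708 ± 26.2 in the controls (SD, n = 3, 3 and 2), and its change of -0.18 ± 0.096 (SE, adjusted p = 0.24) was not called.

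Among the proteases, CTSD and CTSC fell and CTSA and CTSB were not called. CTSD, the aspartic protease cathepsin D (chromosome 11, 1752752 to 1764573), was at 2811, 2666 and 2760.0 normalized counts with sh1, 2580.1, 2534 and 2703 with sh3 and 3691 and 3762 with the control shRNA. All 6 knockdown libraries were far below both controls, at 73.7% of the control mean with sh1 and 69.9% with sh3, and the constructs overlapped. The change was -0.48 ± 0.047 (SE, adjusted p = 0.00014), a 1.39-fold decrease, and it was called in all 17 alternative settings. Of the 31-base words in its transcripts, 38.5% also occur in the transcript of the same-strand coding gene AC068580.4, so that the authors' counting could have split reads between them.

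CTSC, the dipeptidyl peptidase that activates granule proteases of lymphocytes and myeloid cells (chromosome 11, 88293592 to 88337787), was at 4416, 4505 and 4761 normalized counts in the sh1 libraries, 4037, 3983 and 3835 in the sh3 libraries and 4916 and 5207 in the controls. The knockdown libraries were all below both controls, and sh3 was below sh1. The change was -0.25 ± 0.047 (SE, adjusted p = 0.0065), not called without control C, with -0.15 ± 0.053 (SE, adjusted p = 0.12) for sh1 and -0.36 ± 0.053 (SE, adjusted p = 0.0011) for sh3. CTSB, a cysteine protease, was at 5754 ± 102 normalized counts with sh1, 5770.0 ± 89.1 with sh3 and 5868 ± 64.9 in the controls (SD, n = 3, 3 and 2), and its change of -0.026 ± 0.039 (SE, adjusted p = 0.71) had an interval of -0.11 to 0.060. CTSA, a carboxypeptidase that also protects NEU1, was at 1679 ± 53.8 normalized counts with sh1, 1686 ± 40.3 with sh3 and 1789 ± 17.3 in the controls (SD, n = 3, 3 and 2), all 6 knockdown libraries below both controls, with a change of -0.089 ± 0.051 (SE, adjusted p = 0.28) that was not called.

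The other 2 proteases were too low to test. CTSL was listed at 0 in 2 of the knockdown libraries and reached 2.66 normalized counts at most, with 1.98 and 1.03 in the controls. CTSZ was at 5.16, 1.97 and 8.22 normalized counts in sh1, 6.10, 8.88 and 6.81 in sh3 and 13.1 and 7.69 in control cells, and its groups overlapped.

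PSAP, the precursor of the saposins that present sphingolipids to their hydrolases, gave the smallest p of the list. PSAP (chromosome 10, 71816298 to 71851375) was at 28919.9, 29193 and 28794 normalized counts with sh1, 22768, 23119 and 23270.1 with sh3 and 39502 and 38678 with the control shRNA. The 3 groups did not overlap, with sh1 at 74.1% and sh3 at 59.0% of the control mean, and the libraries of a group lay close together. The change was -0.60 ± 0.035 (SE, adjusted p = 1.3e-05), a 1.51-fold decrease, and its p ranked 2 among the 13885 genes tested. It was -0.43 ± 0.039 (SE, adjusted p = 0.00017) with sh1 and -0.76 ± 0.039 (SE, adjusted p = 9.8e-07) with sh3, and all 3 changes were called in each of the 17 alternative settings. None of the 31-base words in its transcripts occurred in transcripts of other genes.

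PSAP made up 33.4% ± 0.33 of the summed normalized counts of the 33 genes with sh1, 28.9% ± 0.45 with sh3 and 38.8% ± 0.58 in the controls (SD, n = 3, 3 and 2). The sum over all 33 genes was 86799 ± 320.3 with sh1, 79678 ± 424 with sh3 and 100684 ± 15.4 in the controls. Without PSAP it was 57830.3 ± 477 with sh1, 56626 ± 635 with sh3 and 61595 ± 598 in the controls. These sums are dominated by the abundant genes and carry no test.

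None of the 5 glycosidases was called in the knockdown in limma, and NEU1 alone was lower at an unadjusted p under 0.05, which 14.2% of all genes tested reached as lower and 14.4% as higher. NEU1, the lysosomal sialidase (chromosome 6, 31857659 to 31862906), was low, at 73.0, 68.9 and 76.8 normalized counts in the sh1 libraries, 55.1, 64.8 and 57.3 in the sh3 libraries and 84.2 and 88.9 in the controls. Its 3 groups did not overlap, with sh3 lowest, and the change of -0.40 ± 0.16 (SE, adjusted p = 0.13) was not called, nor was that of -0.55 ± 0.18 (SE, adjusted p = 0.057) with sh3. Both changes of NEU1 were called without a trend in the variance prior. HEXA, a subunit of the enzyme that degrades gangliosides, was at 1972 ± 28.6 normalized counts with sh1, 1867 ± 42.3 with sh3 and 2024 ± 18.7 in the controls (SD, n = 3, 3 and 2), with all 6 knockdown libraries below both controls and a change of -0.077 ± 0.048 (SE, adjusted p = 0.32) that was not called. GAA, which degrades lysosomal glycogen, had a log2 change of 0.039 ± 0.069 (SE, adjusted p = 0.76), and GLA, the alpha-galactosidase, of 0.072 ± 0.083 (SE, adjusted p = 0.62), both not called. GUSB, the beta-glucuronidase often used as a reference gene, had a log2 change of -0.066 ± 0.045 (SE, adjusted p = 0.37), with an interval of -0.16 to 0.033.

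Of the genes of the V-ATPase, the pump that acidifies lysosomes, ATP6V0D1 fell and the other 2 were not called. ATP6V0D1 encodes a subunit of the membrane sector (chromosome 16, 67438014 to 67481237) and was at 1001, 1090.2 and 1112 normalized counts in sh1, 1036, 904 and 1084 in sh3 and 1277 and 1301 in control cells. The 6 knockdown libraries were below both controls, and the change was -0.32 ± 0.077 (SE, adjusted p = 0.021), with -0.27 ± 0.086 (SE, adjusted p = 0.087) for sh1 and -0.36 ± 0.086 (SE, adjusted p = 0.015) for sh3. Neither the knockdown nor the sh3 change was called without control A or without control C. ATP6AP1, an accessory protein, was at 2338 ± 116 normalized counts with sh1, 2244.5 ± 80.2 with sh3 and 2464 ± 25.8 in the controls (SD, n = 3, 3 and 2), with a log2 change of -0.11 ± 0.053 (SE, adjusted p = 0.22). ATP6V1H, a subunit of the cytosolic sector, was at 1440.0 ± 42.1 normalized counts with sh1, 1294 ± 81.5 with sh3 and 1347 ± 50.6 in the controls (SD, n = 3, 3 and 2), with a log2 change of 0.019 ± 0.062 (SE, adjusted p = 0.88).

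GABARAPL1 was the single gene of the list that rose in the knockdown. This ATG8 protein (chromosome 12, 10212458 to 10223130) was at 556, 489.9 and 426 normalized counts with sh1, 353, 502 and 433 with sh3 and 322 and 275 with the control shRNA. All 6 knockdown libraries were above both controls, though sh3 A was close to control A, and the constructs overlapped. The change was 0.61 ± 0.14 (SE, adjusted p = 0.016), a 1.53-fold increase, with 0.71 ± 0.15 (SE, adjusted p = 0.023) for sh1 and 0.51 ± 0.15 (SE, adjusted p = 0.041) for sh3. The knockdown call was lost without control C, where the adjusted p was at its highest over the alternatives, 0.18. The sh1 call was lost without sh1 A, sh1 B or either control, and the sh3 call without sh1 B, sh3 B, sh3 C or either control. Both were also lost without a trend in the variance prior. Of the 31-base words of GABARAPL1, 1.64% occur in transcripts of GABARAPL3 and 11.3% occur on the opposite strand in transcripts of other genes. The antisense gene AC115676.1 overlaps it, and the labels do not say how strand entered the counting.

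None of the other ATG8 genes of the list was called higher. MAP1LC3B, which encodes the LC3 protein most used as an autophagosome marker (chromosome 16, 87383995 to 87404779), was at 2729.7, 2907 and 3057 normalized counts in the sh1 libraries, 2780.4, 2711 and 2734 in the sh3 libraries and 3060.2 and 3235 in the controls. All 6 knockdown libraries were below both controls, by a small margin in sh1 C, and the change of -0.16 ± 0.053 (SE, adjusted p = 0.069) was not called. That with sh3, -0.20 ± 0.059 (SE, adjusted p = 0.038), was called, and the call was lost when any sh3 library, sh1 B or either control was left out. Of its 31-base words, 5.92% occur in the near-identical gene MAP1LC3B2, so that the authors' counting could have split reads between them. MAP1LC3B2 averaged 14.5 normalized counts over the 8 libraries. GABARAPL2 was at 2329.9 ± 118 normalized counts with sh1, 2122 ± 127 with sh3 and 2269 ± 112 in the controls (SD, n = 3, 3 and 2), with a log2 change of -0.030 ± 0.061 (SE, adjusted p = 0.80) and an interval of -0.16 to 0.10. SQSTM1, the cargo receptor that is itself degraded by autophagy, was at 2323 ± 53.0 normalized counts with sh1, 2464 ± 150.1 with sh3 and 2659.9 ± 143 in the controls (SD, n = 3, 3 and 2), and its change of -0.15 ± 0.057 (SE, adjusted p = 0.10) was not called.

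**Figure D2:**
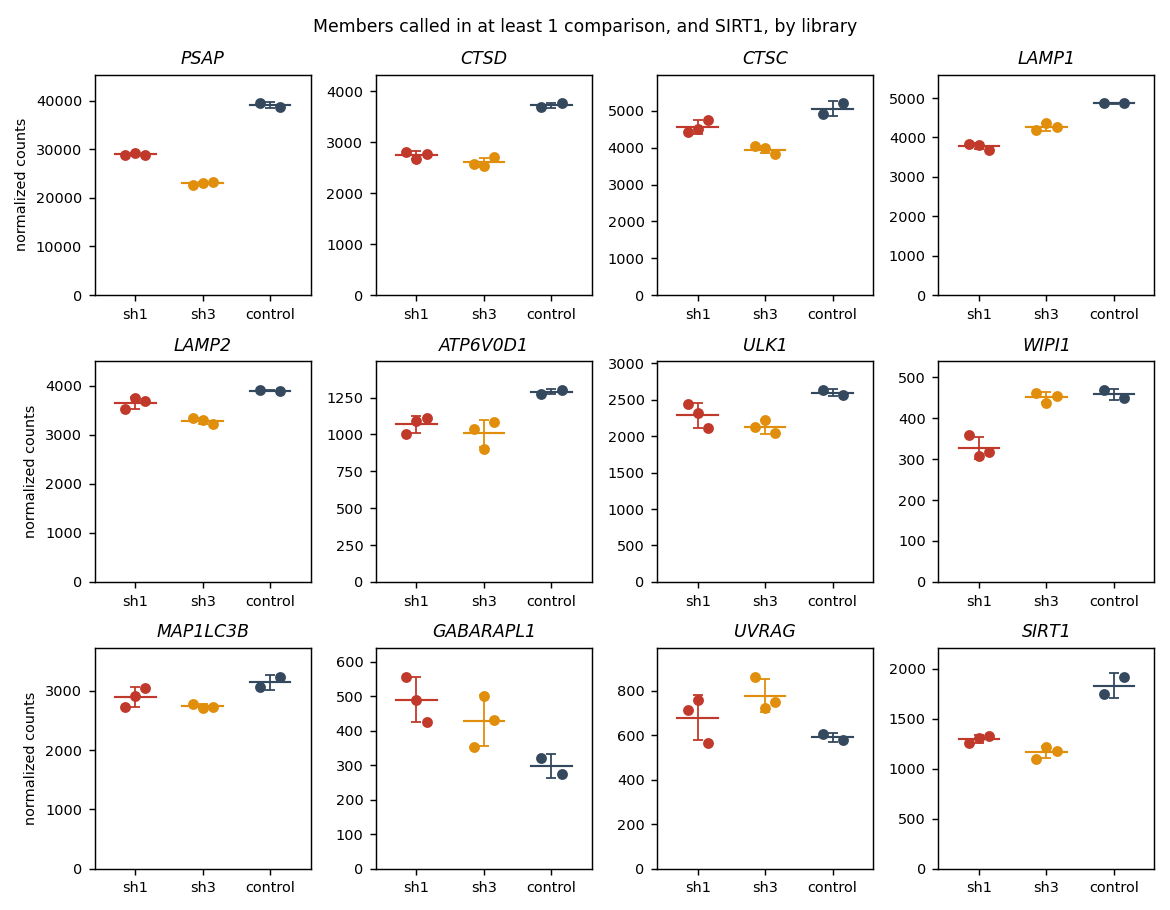
Normalized counts (y axis, starting at 0) in each library for the 11 genes called in at least 1 comparison and for SIRT1, with sh1 in red, sh3 in orange and control in dark blue, where horizontal lines are group means and bars ± SD (n = 3, 3 and 2). PSAP shows 3 separate levels, CTSD 2, WIPI1 is lower with sh1 alone, and GABARAPL1 is higher with both constructs.

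Among the initiation and nucleation factors, ULK1 fell, WIPI1 fell with sh1 and UVRAG rose with sh3. ULK1, the kinase that starts autophagy (chromosome 12, 131894651 to 131923167), was at 2437, 2314 and 2108 normalized counts in sh1, 2124, 2229 and 2038 in sh3 and 2633 and 2566 in control cells. All knockdown libraries were below both controls, and the change was -0.24 ± 0.062 (SE, adjusted p = 0.028), with -0.19 ± 0.069 (SE, adjusted p = 0.14) for sh1 and -0.29 ± 0.069 (SE, adjusted p = 0.015) for sh3. The knockdown call was lost without sh3 A, control A or control C, and the sh3 call without either control.

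WIPI1, which binds the lipid made at the nascent membrane (chromosome 17, 68420948 to 68457513), was at 358, 308 and 318 normalized counts with sh1, 463, 438 and 455 with sh3 and 469 and 449.5 with the control shRNA. The sh1 libraries were below all 5 others, and sh3 overlapped with the controls. The change was -0.49 ± 0.098 (SE, adjusted p = 0.017) with sh1, lost without sh1 B, control A or control C, and -0.023 ± 0.098 (SE, adjusted p = 0.90) with sh3. Of the 31-base words of WIPI1, 30.2% occur on the opposite strand in transcripts of other genes, and ARSG overlaps it on that strand. The libraries were strand-specific per the labels, but the labels do not say how strand entered the counting.

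UVRAG, a partner of BECN1 (chromosome 11, 75815167 to 76143195), was at 712, 760.1 and 568 normalized counts in the sh1 libraries, 863, 723 and 752 in the sh3 libraries and 607 and 578 in the controls. The sh3 libraries were above both controls, and sh1 overlapped with the controls because of sh1 C. The change with sh3, 0.39 ± 0.12 (SE, adjusted p = 0.047), was called, and the call was lost when any sh3 library or either control was left out. Over both constructs it was 0.29 ± 0.11 (SE, adjusted p = 0.11). BECN1, the scaffold of the lipid kinase complex, was at 3359.7 ± 24.6 normalized counts with sh1, 3297 ± 89.5 with sh3 and 3283 ± 78.1 in the controls (SD, n = 3, 3 and 2), and its change of 0.020 ± 0.044 (SE, adjusted p = 0.81) had an interval of -0.077 to 0.12.

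None of the 4 conjugation factors was called in limma in any comparison, and ATG12 alone reached an unadjusted p under 0.05 in the knockdown comparison. ATG12, the ubiquitin-like protein attached to ATG5, was at 2668, 2731 and 2969 normalized counts in sh1, 2765, 2639.8 and 2605 in sh3 and 2572 and 2270.1 in control cells, with all 6 knockdown libraries above both controls, and its change was 0.17 ± 0.061 (SE, adjusted p = 0.085). The log2 change was 0.056 ± 0.082 (SE, adjusted p = 0.71) for ATG5, 0.075 ± 0.10 (SE, adjusted p = 0.68) for ATG7, the activating enzyme, and -0.059 ± 0.092 (SE, adjusted p = 0.73) for ATG16L1, which places the conjugate on the membrane. Their groups overlapped.

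The constructs differed from each other in 5 of the 31 genes, 3 higher and 2 lower with sh1 than with sh3, or 9.68% and 6.45%, beside backgrounds of 5.61% and 5.83% of genes tested. SIRT1 itself differed by 0.16 ± 0.063 (SE, adjusted p = 0.14), which was not called after adjustment, with an unadjusted limma p of 0.028 and an interval of 0.021 to 0.30. Its 3 sh1 libraries all lay above its 3 sh3 libraries. On the log2 scale, sh1 minus sh3, PSAP was higher with sh1 by 0.33 ± 0.035 (SE, adjusted p = 0.00013), CTSC by 0.21 ± 0.047 (SE, adjusted p = 0.016) and LAMP2 by 0.15 ± 0.044 (SE, adjusted p = 0.047). WIPI1 was lower with sh1, with a difference of -0.46 ± 0.088 (SE, adjusted p = 0.0060), and so was LAMP1, with a difference of -0.18 ± 0.042 (SE, adjusted p = 0.019). PSAP and WIPI1 kept this call in all 17 alternative settings. LAMP2 lost it when any one of sh1 B, sh1 C, the sh3 libraries or the controls was left out, LAMP1 without sh1 B, sh1 C or sh3 B, and CTSC without sh1 C, sh3 B or sh3 C. Without sh3 C, 3 genes were called, and without a trend in the variance prior PSAP and WIPI1 alone.

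Levels between genes were compared per kilobase of the longest coding transcript in GENCODE release 29, over all 8 libraries. PSAP stood first at 10195 normalized counts per kilobase, with 10087 ± 71.1 with sh1, 8027 ± 89.6 with sh3 and 13611 ± 203 in the controls (SD, n = 3, 3 and 2). GABARAPL2 followed at 2232 and GUSB at 1662, then BECN1 at 1571 and LAMP1 at 1568. This order is that of the mean over all 8 libraries and differed between the groups. With sh1 BECN1 (1591) and CTSB (1485) stood above LAMP1 (1398), with sh3 LAMP1 (1581) stood above BECN1 (1561), and in the controls LAMP1 (1802) and CTSD (1755) stood above GUSB (1720) and BECN1 (1554). The ranges over the 8 libraries of GUSB (1588 to 1767), BECN1 (1516 to 1601), LAMP1 (1366 to 1803) and CTSB (1461 to 1526) each overlapped with that of the next gene in this order, while that of GABARAPL2 (2024 to 2439.8) lay above all 4. TFE3, at 338, was above TFEB, at 199. CTSZ (4.84), MITF (4.25) and CTSL (0.592) were at the bottom, with NEU1 at 34.8 above them.

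**Figure D3:**
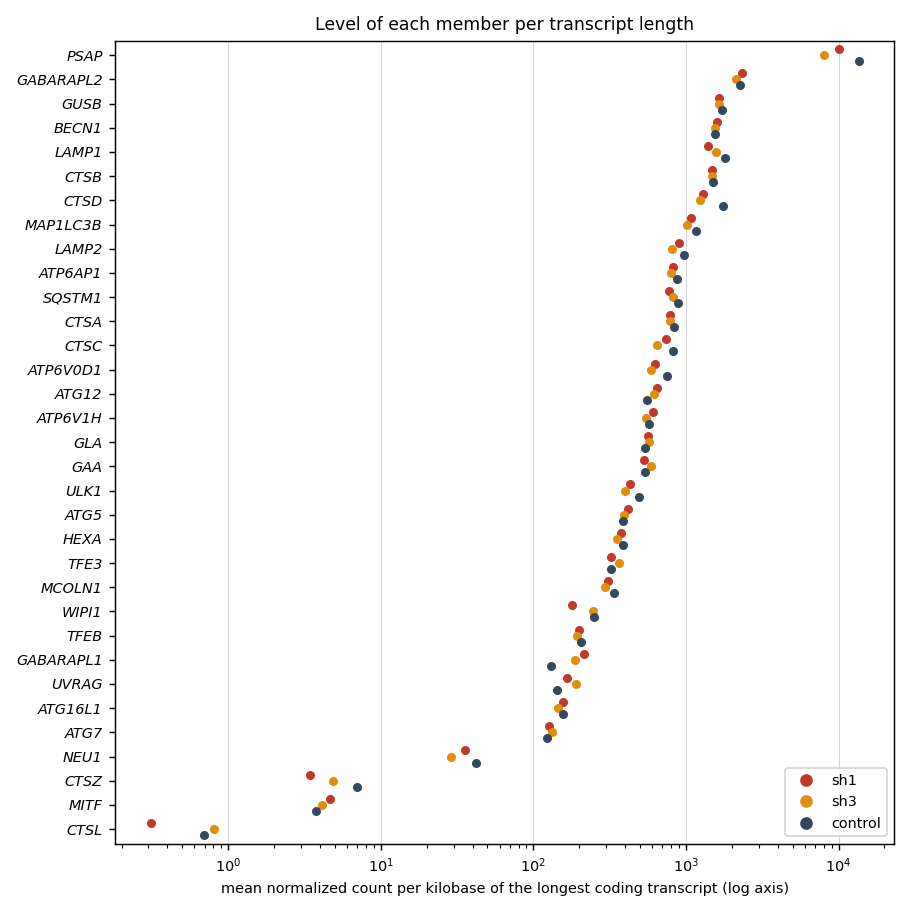
Mean normalized count per kilobase of the longest coding transcript (x axis, log scale) of the 33 genes in rank order, for sh1 (red), sh3 (orange) and control (dark blue). PSAP stands apart at the top at 8027 to 13611, and CTSZ, MITF and CTSL lie under 10.

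The rest of the pathway was described with 9 further lists, of which 169 genes were tested. In the knockdown 19 of the 169 fell (11.2%), beside 6.19% of all genes tested, and 10 rose (5.92%), below the 6.55% of all genes. The median log2 change was -0.038. With sh1 7 fell (4.14%) and 6 rose (3.55%), near the 3.43% and 2.88% of all genes. With sh3 23 fell (13.6%) and 18 rose (10.7%), beside 9.19% and 9.36% of all genes. Of 20 genes taken as the 3 called genes of each list with the smallest p, where a list had as many, 10 were not called without control A and 17 were not called without control C, and TPP1 and SCARB2 were called without either.

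Other lysosomal hydrolases and their activators fell in 6 of 34 cases (17.6%, beside 6.19% of all genes) and rose in 2 (5.88%, near the 6.55% of all genes), with a median log2 change of -0.11. TPP1, a tripeptidyl peptidase, was at 2649, 2866 and 2576 normalized counts with sh1, 2755, 2562 and 2701 with sh3 and 3374 and 3451 with the control shRNA, the knockdown libraries all below both controls, and changed by -0.35 ± 0.054 (SE, adjusted p = 0.0026). Other membrane proteins fell in 3 of 23 cases (13.0%, beside 6.19% of all genes) and rose in 1 (4.35%, beside 6.55% of all genes). The gene that rose was SCARB2, a lysosomal membrane protein that also acts as a sorting receptor, at 2284 ± 118 normalized counts with sh1, 2319.7 ± 80.3 with sh3 and 1704 ± 70.7 in the controls (SD, n = 3, 3 and 2), by 0.43 ± 0.056 (SE, adjusted p = 0.00087). LAPTM5, a lysosomal protein of blood cells, fell with sh1, with a log2 change of -0.83 ± 0.12 (SE, adjusted p = 0.0029), and had a log2 change of -0.26 ± 0.12 (SE, adjusted p = 0.16) with sh3. LAPTM4A, a related protein, had a log2 change of -0.0068 ± 0.071 (SE, adjusted p = 0.97) with sh1 and fell with sh3, with a log2 change of -0.59 ± 0.071 (SE, adjusted p = 0.00032). The constructs differed in both, by -0.57 ± 0.11 (SE, adjusted p = 0.0052) in LAPTM5 and 0.58 ± 0.064 (SE, adjusted p = 0.00016) in LAPTM4A.

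Other V-ATPase subunits fell in 3 of 16 cases (18.8%, beside 6.19% of all genes) and none rose, in limma or at an unadjusted p under 0.05, where 6 were lower (37.5%, beside 14.2% of all genes). TCIRG1, an isoform of the large membrane subunit, was low, at 44.1, 51.8 and 48.8 normalized counts in the sh1 libraries, 34.0, 30.9 and 37.3 in the sh3 libraries and 80.8 and 94.8 in the controls, and changed by -1.10 ± 0.19 (SE, adjusted p = 0.0046). ATP6V0E2 changed by -0.30 ± 0.052 (SE, adjusted p = 0.0046) and ATP6V1A, the catalytic subunit, by -0.29 ± 0.064 (SE, adjusted p = 0.015). Of 18 genes that sort hydrolases to lysosomes, 2 fell (11.1%, beside 6.19% of all genes) and none rose in limma. At an unadjusted p under 0.05, 3 were higher and 3 lower (16.7% each, near the 14.4% and 14.2% of all genes). The genes that fell were VPS26A, a retromer subunit, with -0.035 ± 0.055 (SE, adjusted p = 0.76) for sh1 and -0.38 ± 0.055 (SE, adjusted p = 0.00088) for sh3, and GNPTAB, the enzyme that makes the mannose 6-phosphate tag, with -0.034 ± 0.050 (SE, adjusted p = 0.75) for sh1 and -0.29 ± 0.050 (SE, adjusted p = 0.0028) for sh3. The constructs differed in both, by 0.35 ± 0.049 (SE, adjusted p = 0.00086) and 0.26 ± 0.045 (SE, adjusted p = 0.0037).

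Other autophagy receptors rose in 2 of 12 cases (16.7%, beside 6.55% of all genes) and none fell in limma. At an unadjusted p under 0.05 none was lower and 4 were higher in the knockdown comparison (33.3%, beside 14.4% of all genes). With sh1 alone 2 were higher and 2 lower at that threshold, and with sh3 alone 5 were higher and none lower. The shares of all genes at that threshold were not counted for the single constructs, so these counts have no background. At an adjusted p under 0.05, sh3 called more of all genes than sh1 did (9.36% against 2.88% higher). NBR1, a receptor related to SQSTM1, was at 4489 ± 152 normalized counts with sh1, 4917 ± 154 with sh3 and 3820.4 ± 132 in the controls (SD, n = 3, 3 and 2) and changed by 0.30 ± 0.047 (SE, adjusted p = 0.0026), and TAX1BP1 changed by 0.21 ± 0.044 (SE, adjusted p = 0.0095). Other initiation and membrane supply genes rose in 2 of 17 cases (11.8%, beside 6.55% of all genes). ATG13, a subunit of the ULK1 complex, rose by 0.20 ± 0.043 (SE, adjusted p = 0.014). ATG9A, a lipid scramblase of the membrane source, rose by 0.38 ± 0.090 (SE, adjusted p = 0.018). In that list 1 gene fell (5.88%, near the 6.19% of all genes), ULK2, the relative of ULK1. ULK2 was low, at 18.2, 17.5 and 17.4 normalized counts in sh1, 21.4, 21.2 and 26.3 in sh3 and 53.4 and 49.7 in control cells. It changed by -1.31 ± 0.24 (SE, adjusted p = 0.0061). Of 10 other ATG8 family and conjugation genes, GABARAP alone fell (10%, beside 6.19% of all genes), by -0.22 ± 0.062 (SE, adjusted p = 0.039). None of them rose in limma, and 1 was higher at an unadjusted p under 0.05 (10%, beside 14.4% of all genes). None of 13 genes of autophagosome fusion was called in limma in the knockdown comparison, with 2 higher and 2 lower at an unadjusted p under 0.05 (15.4% each, near the shares over all genes). With sh3 2 of these rose (15.4%, beside 9.36% of all genes) and none fell, and with sh1 none was called.

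Of 26 genes of mTORC1 and of the control of the TFE factors, 3 rose and 3 fell (11.5% each, beside 6.55% and 6.19% of all genes). RRAGD, a Rag GTPase that recruits TFE factors to the lysosome, was at 1816 ± 40.8 normalized counts with sh1, 2045 ± 104 with sh3 and 1529.6 ± 92.5 in the controls (SD, n = 3, 3 and 2) and changed by 0.33 ± 0.058 (SE, adjusted p = 0.0045). FNIP1, the partner of folliculin, changed by 0.30 ± 0.068 (SE, adjusted p = 0.015). RRAGB, another Rag GTPase, was low, at 65.1, 49.8 and 60.8 normalized counts with sh1, 19.7, 15.8 and 31.5 with sh3 and 112 and 85.2 with the control shRNA. Its sh3 libraries were the lowest, and the log2 change was -0.74 ± 0.30 (SE, adjusted p = 0.17) with sh1 and -2.14 ± 0.30 (SE, adjusted p = 0.00077) with sh3, which differed by 1.40 ± 0.27 (SE, adjusted p = 0.0060).

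**Figure D4:**
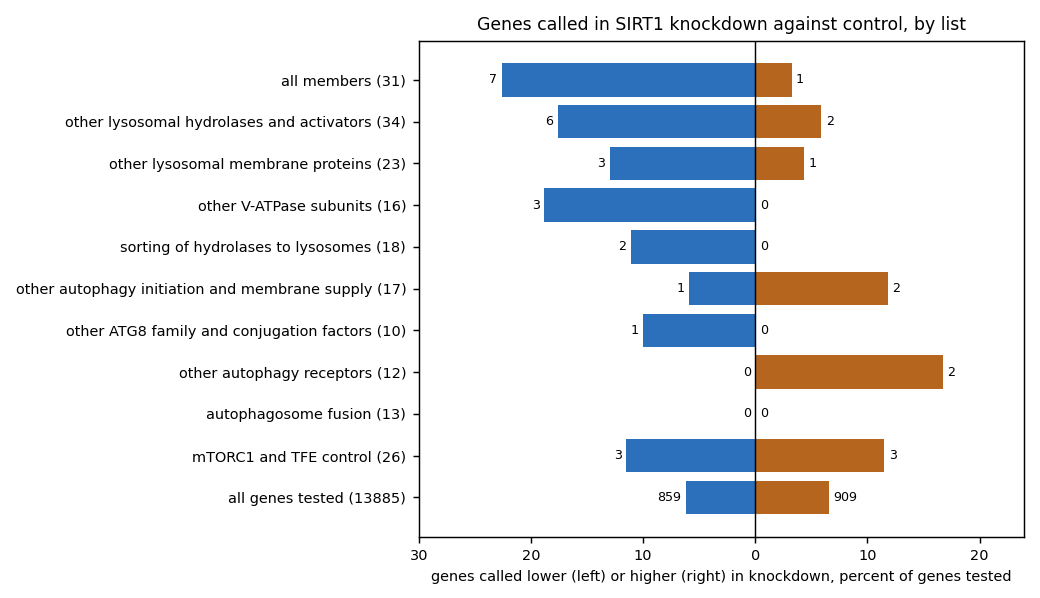
Genes called lower (blue, left) or higher (brown, right) in SIRT1 knockdown against control as a percent of the genes tested in each list (x axis), with the list size in brackets and the number of genes at the end of each bar. The 33-gene list (31 tested) had 7 lower and 1 higher, and all genes tested had 859 lower and 909 higher.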

How the data were processed

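Strand-specific RNA libraries were made from 8 DND41 cultures, per the labels' protocols. The deposited signal values are normalized counts per gene symbol that the authors made with kallisto 0.44.0 and DESeq on hg38, per the submitters' processing notes. The annotation and filters behind them are not stated there. The values are not whole, and 25.1% to 39.4% of those under 30 lay within 0.02 of a step, so whole reads and depth could not be recovered and no count test was used.

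Values were analysed as log2(value + 1), which understates changes of low genes, for 13885 genes whose mean was at least 10. A limma 3.58.1 model (R 4.3.3) held 3 group means with a trended variance prior and 5 residual degrees of freedom. Knockdown is the mean of sh1 and sh3. Where all knockdown libraries are said to lie below or above both controls, the share of all genes that do so was not counted. Tests were two-sided, adjusted by Benjamini-Hochberg over all genes tested and called under 0.05, and intervals are 95% intervals. The procedure was tested on simulated data, and 17 alternative settings were run. Gene coordinates are from GENCODE release 29 on GRCh38, and promoters from RefSeq. All 33 genes are described, and of each other pathway list the 3 called genes with the smallest p were taken, of which some are left out of the text but not of the counts. The genes and lists were chosen with earlier results of these data known.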

Additional observations from a re-analysis of the deposited data

Results flagged for a closer look

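In 5 of the 31 tested genes the effect of sh1 against control differed from that of sh3 against control by the limma contrast of the constructs, in which the shared controls cancel. Of the 31, 9.68% were higher and 6.45% lower with sh1 than with sh3, beside 5.61% and 5.83% of all genes tested, so the share called lower was near that of all genes and the share called higher rested on 3 genes. As sh1 minus sh3 on the log2 scale, PSAP differed by 0.33 and WIPI1 by -0.46, and both differences were called in all 17 alternative settings. CTSC differed by 0.21, LAMP1 by -0.18 and LAMP2 by 0.15. The difference in LAMP2 was called in 6 of the 17 settings, and those in CTSC and LAMP1 in 13 each. SIRT1 itself differed by 0.16, with an interval of 0.021 to 0.30, an unadjusted limma p of 0.028 and an adjusted p of 0.14, and its 3 sh1 libraries (1259 to 1329 normalized counts) all lay above its 3 sh3 libraries (1099 to 1217). The part of SIRT1 levels in these differences was not tested. Groups of 3 or fewer libraries were too small to look for single libraries that stand apart.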

How the results depend on the processing

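None of the results changed direction past the threshold under the 17 alternatives. SIRT1 was called lower in the knockdown in all of them, by -0.64 to -0.50. Other pseudocounts, filters, quantile normalization and median of ratios rescaling kept every count of called genes within 1.5 times. Without a trend in the variance prior, 744 genes and 5 of the 31 were called in the knockdown, 236 genes with sh1, 1531 genes and 6 of the 31 with sh3, and 968 genes and 2 of the 31 between the constructs. When the fit held the compared groups alone, with the constructs as 1 group in the knockdown comparison, 394 genes and 2 of the 31 (PSAP and CTSD) were called in the knockdown and 462 genes with sh1. Leaving out each library in turn gave 339 to 1898 genes and 3 to 10 of the 31 in the knockdown, 159 to 782 genes and 3 to 5 with sh1, 860 to 2931 genes and 4 to 10 with sh3, and 925 to 1770 genes and 2 to 5 between the constructs. The lowest counts of genes came without control C, except between the constructs, where genes were fewest without sh3 B. With a single control left, that library is assumed to vary like the other groups. The cause of these shifts was not tested, and the fits with a library left out also held fewer libraries than the main fit. Libraries with the same letter did not deviate together (correlations -0.062 to 0.058), and with the letter as a replicate block 7 of the 31 and 1292 genes were called in the knockdown and 549 genes with sh1. Under this block the calls of ATP6V0D1, GNPTAB and GABARAP in the knockdown, of GABARAPL1 with sh1, of GABARAPL1, MAP1LC3B and UVRAG with sh3 and of LAMP2 between the constructs were not made. UVRAG with sh3 and LAMP2 between the constructs were also not called without a filter on low values. Of 1256 values of single genes under the alternatives, 138 lost a call, 5 gained one and none reversed past the threshold. In the knockdown comparison they cover the tested genes of the list and the pathway genes taken because they were called. In the other comparisons they cover SIRT1 and the genes of the list called there. Values called in the main fit could lose a call but not gain one, so the counts of losses and gains cannot be compared. The gain of NEU1 with sh3 is not among the 5. Control arms of 2 libraries and the unknown read depth limit what could be detected, above all for MITF, CTSZ and CTSL.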
